A study of Mus musculus with 19 samples.

Results

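The genes of 10 neuronal EF-hand proteins were followed in cultured mouse hippocampal neurons whose firing had been blocked or driven. These are Calb1, Calb2, Pvalb, Cabp1, Cabp7, Necab1, Necab2, Necab3, Hpca and Ncald, 10 of the 24058 genes with an expression value, matched by gene symbol. The 10 were selected on earlier RNA-seq results from these same libraries, so every difference in their RNA is given as a description and supports nothing on its own. All samples came from embryonic day 17 hippocampus grown for 10 days in vitro. One group was untreated, another was kept silent by tetrodotoxin (TTX), which blocks the sodium channels of action potentials, for a time not given in the sources used here. A further group received bicuculline, a GABA-A receptor antagonist, with the potassium channel blocker 4-aminopyridine (Bic/4AP) during 3 h. For RNA-seq each group had 3 libraries of ICR mice. For bisulfite sequencing each had 1 library, of C57BL/6 mice, and ChIP-seq of ICR neurons gave 4 peak lists for H3K27ac and 2 for H3K4me1. Each culture held a mixture of cell types, so a lower value cannot be told apart from fewer cells of a type. Nothing in the labels shows whether libraries of a group were separate cultures, so their spread may be technical.

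An EF-hand is a helix-loop-helix that holds a calcium ion in its loop. Some EF-hand proteins, such as calbindin, calretinin and parvalbumin, act mainly as buffers that bind and slow the calcium entering a firing neuron. Others are sensors: they change shape on binding calcium and then act on channels, lipid kinases or the endocytic machinery. In the hippocampus the buffers mark classes of inhibitory neurons, calbindin also marks dentate granule cells, and hippocalcin is abundant in pyramidal neurons.

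With Bic/4AP the RNA of the sensors Cabp1 and Cabp7 fell several-fold below the untreated level. That of the buffers Calb1, Calb2 and Pvalb and of Necab1 rose between 1.55-fold and 2-fold. The sensors did not share a direction: Hpca fell only 1.17-fold. Ncald, a relative of Hpca, rose as deposited (95.2 against 63.8 RPKM) but not after 2 other normalizations. With TTX the directions varied by gene. Calb2 rose and Cabp1 fell as they did with Bic/4AP, Necab1 fell where it had risen, and Calb1 and Cabp7 did not pass as deposited. The Pvalb rise with TTX was lost after 1 of 2 other normalizations. Expression values are RPKM, reads scaled by gene length and library size. The highest RPKM of any gene was only 123 to 146 with TTX, 305 to 459 untreated and 254 to 287 with Bic/4AP. Levels of high and low genes may therefore not be in proportion, and RPKM of different genes are not compared as amounts. "Rose" and "fell" mark genes that passed limma's moderated test on log2(RPKM + 1), fitted over all 14801 genes that reached 1 RPKM in at least 3 of the 9 libraries, at a Benjamini-Hochberg adjusted p of 0.05 or less. Of the 10 genes, 6 rose and 4 fell with Bic/4AP against untreated, where 29.6% of all tested genes rose and 42.5% fell. Against the same untreated libraries, 4 rose, 2 fell and 4 did not pass with TTX, where 40.6% of tested genes rose and 23.5% fell. Between Bic/4AP and TTX, 4 were higher, 4 were lower and 2 did not pass, where 23.7% were higher and 53.1% lower. The 3 comparisons share their libraries and are not independent of one another.

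**Figure D1:**
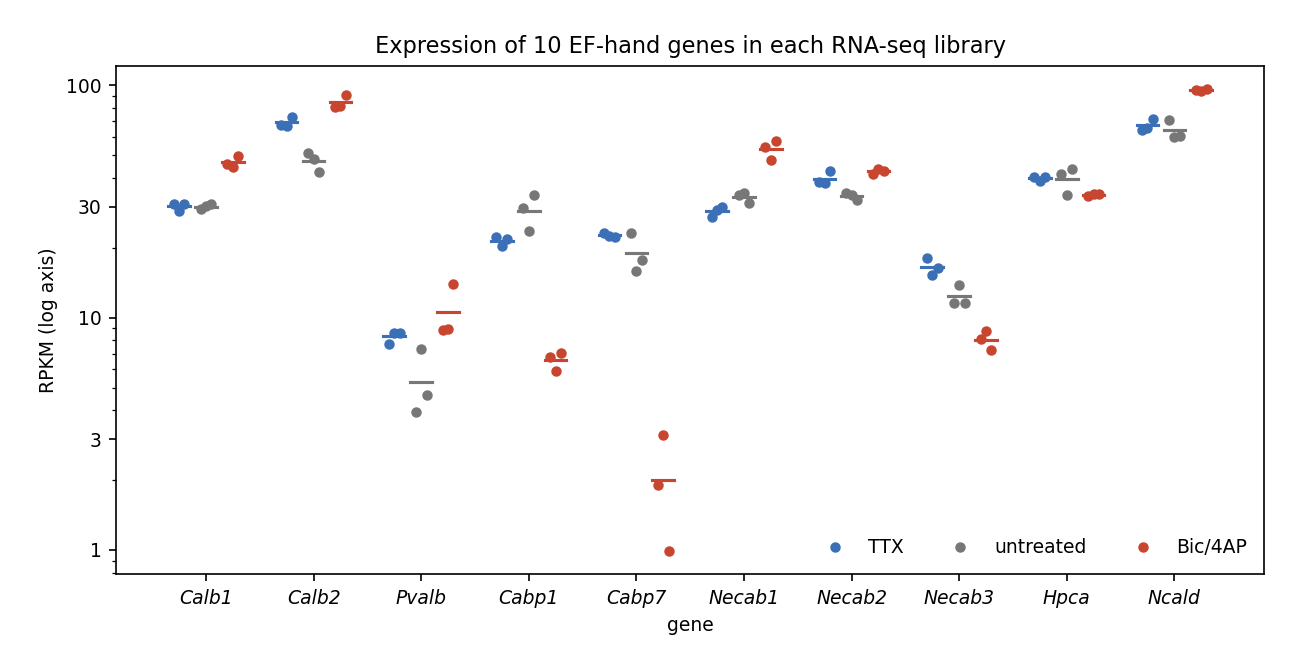
Expression of the 10 genes in each RNA-seq library, in RPKM on a log axis; each point is 1 library and each bar the mean of 3 libraries, with TTX in blue, untreated in grey and Bic/4AP in red. The Bic/4AP points of Cabp1 and Cabp7 lie far below the other 6 libraries, those of Calb1, Calb2, Necab1 and Ncald lie above all others of their gene, and those of Hpca overlap the untreated points.

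Scale matters for these values, since the groups differed in depth and in the spread of their RPKM. Recovered library sizes were 9.68 to 12.6 M reads with TTX, 5.63 to 9.97 M untreated and 4.34 to 4.59 M with Bic/4AP. The 99th percentile of RPKM was 61.8 to 68.1, 62.6 to 75.8 and 98.7 to 101 in the same order, and the deepest untreated library had the lowest value of its group. Its part in the differences of high genes was not tested. The median log2 difference of all tested genes was -0.12 for Bic/4AP against untreated, 0.13 for TTX against untreated and -0.33 for Bic/4AP against TTX. A "relative log2 difference" below has that median subtracted, while folds and calls use the deposited scale. Calls were also read after quantile and cyclic loess normalization, which make the distributions of the libraries alike. After quantile normalization 38.8% of tested genes rose and 30.9% fell with Bic/4AP, and after loess 35.8% and 35%. For TTX the shares were 37.3% and 31.9% after quantile and 30.8% and 35.4% after loess normalization. For Bic/4AP against TTX they were 33.7% higher and 36.2% lower, and 34.7% and 35.7%.

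Sums of cell class markers also differed between the groups as deposited. Summed RPKM of 8 general neuron markers was 784 to 823 with Bic/4AP, 491 to 569 untreated and 487 to 542 with TTX. For 12 markers of GABAergic neurons, none of them a gene described here, the sums were 749 to 781, 420 to 478 and 480 to 537. In log2 differences with Bic/4AP against untreated, the general neuron list had a median of 0.55 as deposited but 0.04 after quantile and -0.16 after loess normalization, and under all 3 scalings 3 of the 8 rose and 1 fell. The GABAergic list had medians of 0.72, 0.37 and 0.40. Of the 12, 11 rose and 0 fell with Bic/4AP, with 5 and 2 under TTX. Astrocyte markers summed to 201 to 232 with Bic/4AP, 133 to 144 untreated and 171 to 191 with TTX. The 10 choroid plexus markers summed to 385 to 574 untreated and only 29.5 to 34.2 with Bic/4AP and 16.8 to 23.4 with TTX, and all 10 fell in both comparisons. The part of these shifts in the values of the EF-hand genes was not tested.

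Calb1 encodes calbindin, a fast cytosolic buffer. It lies on chromosome 4 at 15881264 to 15906709 of GRCm38, the assembly of all positions here. It read 45.8, 44.3 and 49.3 RPKM with Bic/4AP, 29.2, 30.1 and 30.7 untreated and 30.7, 28.7 and 30.8 with TTX. The Bic/4AP libraries stood clear of the other 6, which overlapped. The means were 46.5 ± 2.55 (SD, n = 3), 30 ± 0.739 and 30.1 ± 1.16. Calb1 rose 1.55-fold with Bic/4AP, a relative log2 difference of 0.74. It was also called higher after quantile and loess normalization, at smaller log2 differences of 0.41 and 0.46 against 0.61 as deposited. Its TTX value did not pass on the deposited scale, at a relative log2 difference of -0.13, while quantile normalization gave a called log2 difference of -0.16.

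Calb2 encodes calretinin, a buffer of some hippocampal interneurons, and lies on chromosome 8 at 110142526 to 110168212. Its libraries read 80.8, 81.5 and 90.4 RPKM with Bic/4AP, 51, 48.1 and 42.4 untreated and 67.4, 66.6 and 73.1 with TTX. None of the 3 groups overlapped, and the untreated group was the lowest. Calb2 rose 1.79-fold with Bic/4AP to 84.2 ± 5.35 against 47.2 ± 4.39 RPKM, a relative log2 difference of 0.95. Normalized log2 differences were smaller, at 0.36 (quantile) and 0.35 (loess) against 0.83 as deposited. It also rose 1.46-fold with TTX, to 69 ± 3.52 RPKM, a relative log2 difference of 0.41, and both rises were called after both normalizations. The order of the treated groups depended on scaling: Bic/4AP was called higher than TTX as deposited (log2 difference 0.28) and called lower after quantile (-0.34) and loess (-0.27) normalization.

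Pvalb encodes parvalbumin, the buffer of fast-spiking interneurons, and lies on chromosome 15 at 78191112 to 78206400. It had the lowest RPKM of the 10 in untreated neurons. It read 8.81, 8.93 and 14 RPKM with Bic/4AP, 3.93, 7.33 and 4.63 untreated and 7.71, 8.59 and 8.58 with TTX. These rest on 36, 37 and 55 reads with Bic/4AP and on 20, 66 and 24 reads untreated, so the counting error is large. The untreated libraries lay below the other 6, with 7.33 RPKM close to the lowest TTX value. Pvalb rose 2-fold with Bic/4AP, to 10.6 ± 2.98 against 5.3 ± 1.79 RPKM, a relative log2 difference of 1.01. Its log2 difference was 0.89 (deposited), 1.42 (quantile) and 1.41 (loess). With TTX it rose 1.57-fold, to 8.29 ± 0.508 RPKM (relative log2 difference 0.47), a call that was lost after loess normalization (log2 difference 0.27) and without any 1 of 4 libraries, at 0.44 to 0.57. Those 4 were TTX libraries 2 and 3 and untreated libraries 1 and 3. Bic/4AP and TTX libraries did not overlap, but that difference did not pass as deposited, at a log2 difference of 0.29. It was called higher with Bic/4AP after quantile (0.94) and loess (1.14) normalization.

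Cabp1 encodes caldendrin and its shorter forms, calmodulin-like sensors that act on inositol trisphosphate receptors and L-type calcium channels. It lies on chromosome 5 at 115168691 to 115194381. Its libraries read 6.74, 5.9 and 7.03 RPKM with Bic/4AP, from 36, 32 and 36 reads, 29.5, 23.5 and 33.6 untreated and 22.2, 20.4 and 21.7 with TTX. The 3 groups did not overlap, with untreated on top and Bic/4AP far below. Cabp1 fell 4.4-fold with Bic/4AP, to 6.56 ± 0.583 against 28.9 ± 5.08 RPKM, a relative log2 difference of -1.85. It fell 1.35-fold with TTX, to 21.5 ± 0.928 RPKM, a relative log2 difference of -0.53. As deposited, Bic/4AP was 3.27-fold lower than TTX. All 3 calls held after both normalizations, but sizes differed: against untreated the log2 difference was -1.97 (deposited), -1.57 (quantile) and -1.68 (loess), and against TTX it was -1.57, -0.90 and -0.98.

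Cabp7 encodes calneuron II, a Golgi-associated sensor that restrains a phosphatidylinositol 4-kinase when calcium is low. It lies on chromosome 11 at 4736892 to 4747179 and overlaps Zmat5, so reads may be shared. It showed the largest difference of the 10, reading 1.9, 3.12 and 0.989 RPKM with Bic/4AP against 23.1, 15.9 and 17.7 untreated and 23.1, 22.4 and 22.2 with TTX. The Bic/4AP values are 6, 10 and 3 reads, against 91, 111 and 71 reads in the untreated libraries. Bic/4AP lay far below the other groups, which overlapped. Cabp7 fell 9.45-fold against untreated, from 18.9 ± 3.74 to 2 ± 1.07 RPKM, a relative log2 difference of -2.65. As deposited it was 11.3-fold lower than with TTX (22.6 ± 0.467 RPKM). Both differences were called after both normalizations, at smaller sizes: against untreated the log2 difference was -2.78 (deposited), -2.39 (quantile) and -2.30 (loess), and against TTX it was -3.04, -2.46 and -2.23. TTX against untreated did not pass, at a log2 difference of 0.26 as deposited and -0.07 after loess normalization.

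Genes of middling expression as a whole read lower with Bic/4AP: the median log2 difference was -0.15 in the expression decile of Cabp1 and -0.28 in that of Cabp7, against their own -1.97 and -2.78. For Pvalb it was -0.54 against its own 0.89. Genes in the deciles of Calb1 and Calb2 had medians of 0.20 and 0.45, against 0.61 and 0.83 for Calb1 and Calb2 themselves. How much of their difference is shared with other genes of that level was not tested.

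The NECAB proteins carry an EF-hand region next to a domain like that of bacterial monooxygenases. Necab1 is found in subsets of cortical and hippocampal neurons, Necab2 binds metabotropic glutamate receptor 5 and an adenosine receptor, and Necab3 binds the adaptor protein encoded by Apba2. Necab1 lies on chromosome 4 at 14952245 to 15149804, where Gm11837 overlaps it. It read 54, 47.4 and 57.3 RPKM with Bic/4AP, 33.7, 34.2 and 31.1 untreated and 27.1, 28.9 and 29.8 with TTX. The groups did not overlap and ran Bic/4AP, untreated, TTX from high to low. Necab1 rose 1.6-fold with Bic/4AP, to 52.9 ± 5.05 against 33 ± 1.66 RPKM, a relative log2 difference of 0.78. It was 1.85-fold higher with Bic/4AP than with TTX, and both calls held after both normalizations. Against untreated the log2 difference was 0.66 (deposited), 0.39 (quantile) and 0.48 (loess). It fell 1.15-fold with TTX, to 28.6 ± 1.38 RPKM, a relative log2 difference of -0.33 called under every scaling. The TTX call was lost without TTX library 1 or 2 or untreated library 1 or 2, at log2 differences of -0.16 to -0.21.

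Necab2 moved little and in the same direction under both drugs. It lies on chromosome 8 at 119446719 to 119472640. Its libraries read 41.6, 43.7 and 42.8 RPKM with Bic/4AP, 34.3, 33.6 and 32.1 untreated and 38.3, 37.9 and 42.6 with TTX. The untreated libraries lay below both treated groups, which overlapped. Necab2 rose 1.28-fold with Bic/4AP (42.7 ± 1.04 against 33.3 ± 1.13 RPKM) and 1.19-fold with TTX (39.6 ± 2.58 RPKM), at relative log2 differences of 0.47 and 0.11. Both calls held after both normalizations, with Bic/4AP log2 differences of 0.16 and 0.15 against 0.35 as deposited. Bic/4AP against TTX did not pass, at a log2 difference of 0.11 as deposited and -0.01 after quantile normalization, and it passed only without TTX library 3, at 0.16.

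Necab3 ran opposite to Necab1. It read 8.06, 8.79 and 7.26 RPKM with Bic/4AP, 11.6, 13.8 and 11.6 untreated and 18, 15.3 and 16.3 with TTX. No groups overlapped, with TTX on top. Necab3 fell 1.53-fold with Bic/4AP, to 8.03 ± 0.765 against 12.3 ± 1.32 RPKM, and rose 1.34-fold with TTX, to 16.6 ± 1.39 RPKM. Neither call held after normalization, at log2 differences of -0.07 (quantile) and -0.13 (loess) for Bic/4AP and 0.19 and 0.07 for TTX. The median of its expression decile was -0.45 with Bic/4AP and 0.28 with TTX, close to its own log2 differences of -0.56 and 0.40. Necab3 was 2.06-fold lower with Bic/4AP than with TTX, a call that held after both normalizations at -0.26 and -0.20. The decile median in that comparison was -0.81, close to its own -0.96 as deposited. Its span, 154544391 to 154559406 on chromosome 2, overlaps 1700003F12Rik, Actl10 and E2f1, with which it may share reads.

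Hpca encodes hippocalcin, a myristoylated sensor that moves to membranes on binding calcium. Ncald encodes neurocalcin delta, a close relative that binds clathrin. Hpca (chromosome 4, 129111570 to 129125919) overlaps Tmem54, and Ncald (chromosome 15, 37366175 to 37792519) overlaps 4930447A16Rik and Gm15941. Hpca read 33.3, 33.9 and 34 RPKM with Bic/4AP, 41.5, 33.5 and 43.5 untreated and 40.3, 38.6 and 40.2 with TTX. The lowest untreated library lay inside the Bic/4AP range. Hpca passed as 1.17-fold lower with Bic/4AP (33.7 ± 0.418 against 39.5 ± 5.31 RPKM), at a relative log2 difference of only -0.09. That call was lost with no filter on low values, with only these 2 groups in the fit, and without untreated library 1 or 3 or any 1 Bic/4AP library, at log2 differences of -0.14 to -0.22, and with voom on recovered reads (-0.18, an alternative added after seeing the data). It passed after quantile (-0.32) and loess (-0.40) normalization. The TTX libraries lay inside the untreated range (39.7 ± 0.965 RPKM), and the difference did not pass. Against TTX, Hpca was 1.18-fold lower with Bic/4AP, with groups apart, though the relative log2 difference was 0.11, of the opposite sign, and the call was lost without TTX library 1 or 3 or Bic/4AP library 1.

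Ncald had the highest RPKM of the 10 with Bic/4AP. It read 95.4, 94 and 96.1 RPKM with Bic/4AP, 71, 60 and 60.5 untreated and 64.3, 65.4 and 71.7 with TTX. The Bic/4AP libraries were the highest and the other groups overlapped. Ncald passed as 1.49-fold higher with Bic/4AP (95.2 ± 1.12 against 63.8 ± 6.22 RPKM) as deposited, but not after quantile (0.07) or loess (0.02) normalization. The median log2 difference of its expression decile was 0.45 against its own 0.57. Against TTX it was called higher as deposited (0.50) and lower after quantile (-0.15) and loess (-0.17) normalization, so its direction depended on scaling. TTX against untreated (67.1 ± 4 RPKM) did not pass as deposited, and passed after quantile (0.22) and loess (0.19) normalization and without untreated library 1 (0.15).

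**Figure D2:**
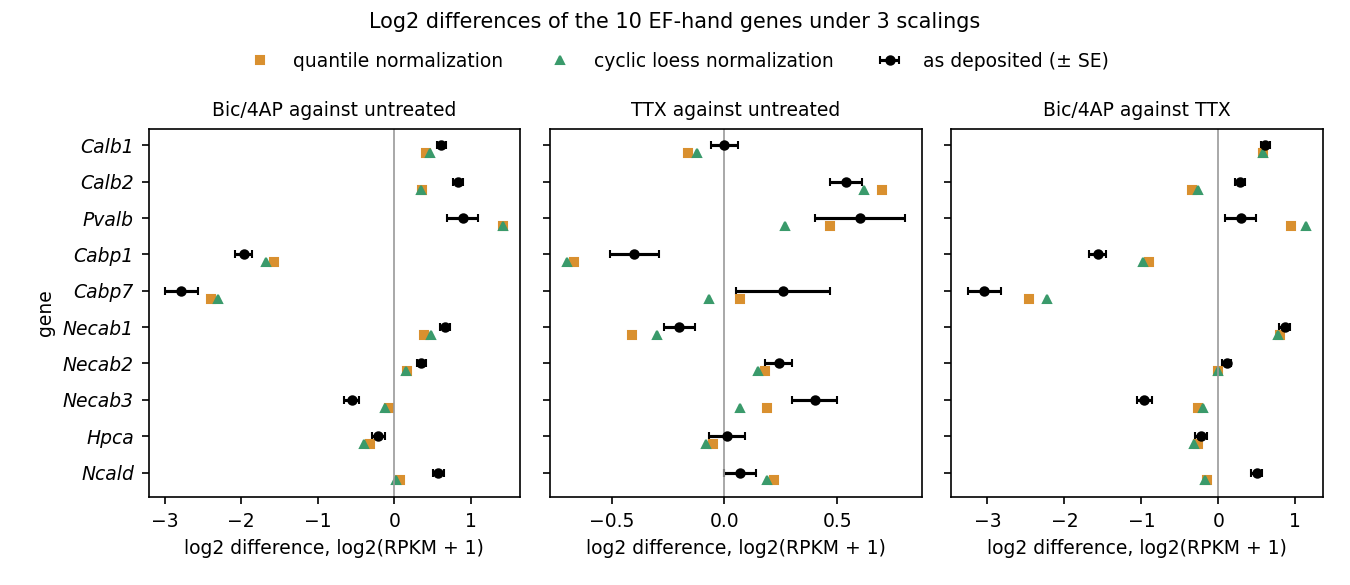
Log2 differences of the 10 genes in the 3 comparisons on the log2(RPKM + 1) scale; black points are the deposited values with the standard error of the fit (3 libraries per group), orange squares follow quantile and green triangles cyclic loess normalization. Cabp1 and Cabp7 stay far below 0 in both comparisons with Bic/4AP under every scaling, whereas Ncald moves to near 0 against untreated and Calb2 and Ncald cross 0 against TTX. The TTX panel spans a narrower range than the others.

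Counting only calls made under all 3 scalings, 5 of the 10 rose with Bic/4AP (Calb1, Calb2, Pvalb, Necab1 and Necab2) and 3 fell (Cabp1, Cabp7 and Hpca), where 21.6% and 27.8% of tested genes did so. With TTX, Calb2 and Necab2 rose and Cabp1 and Necab1 fell under all 3, where 28.7% and 21.8% did. Between Bic/4AP and TTX, Calb1 and Necab1 were higher and Cabp1, Cabp7, Necab3 and Hpca lower under all 3, where 19% and 30.8% were. The median relative log2 difference of the 10 was 0.58, 0.02 and 0.53 in the same order of comparisons, where the median of all genes is 0 by construction. These medians depended on scaling: the median log2 difference of the 10 after quantile and loess normalization was 0.12 and 0.08 for Bic/4AP against untreated, 0.12 and 0.00 for TTX, and -0.21 and -0.18, with the sign changed, for Bic/4AP against TTX.

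Other EF-hand genes were read from a list of 31, of which 28 were tested. With Bic/4AP 17 rose, 6 fell and 5 did not pass, and the median relative log2 difference was 0.49. After quantile and loess normalization the median log2 difference was 0.14 and 0.07. Under all 3 scalings 10 rose and 5 fell. S100a10, a partner of annexin, rose to 16.4 ± 1.8 from 9.35 ± 1.69 RPKM, and Hpcal1, a relative of hippocalcin, to 51.7 ± 3.32 from 31.7 ± 4.08, both under all 3 scalings. Vsnl1, which encodes the sensor visinin-like 1, read 148 ± 6.25 against 90 ± 9.58 RPKM, a rise as deposited that was not called under all 3 scalings. Lower values that held under all 3 were those of S100a1 (3.43 ± 2.26 against 17.7 ± 3.16), Tesc, which encodes tescalcin (5.28 ± 0.232 against 20.7 ± 3.1), and Kcnip3, a potassium channel-interacting sensor (3.4 ± 0.695 against 11.8 ± 1.2).

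With TTX, 10 of the 28 rose, 8 fell and 10 did not pass, with a median relative log2 difference of -0.07. S100a10 rose to 32.7 ± 0.816 RPKM, Cib2, a calcium and integrin binding protein gene, to 23.4 ± 0.675 from 10.1 ± 0.961, and Rcn1, a reticulocalbin of the endoplasmic reticulum, to 15.3 ± 1.01 from 9.11 ± 0.175. S100a1 fell to 8.05 ± 1.27, Kcnip4 to 8.68 ± 0.402 from 13.9 ± 0.604 and Ppp3r1, the calcineurin B subunit gene, to 75.1 ± 4.71 from 100 ± 11.7. These 6 calls held under all 3 scalings. Between Bic/4AP and TTX, 15 were higher, 9 lower and 4 did not pass. The largest on the higher side were Vsnl1 and Kcnip4, under all 3 scalings, and Ppp3r1, as deposited but not under all 3. On the lower side they were Tesc, Cib2 and Kcnip3, under all 3.

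Partners of these sensors and genes of calcium transport formed a list of 24, of which 22 were tested. With Bic/4AP 7 rose, 13 fell and 2 did not pass, at a median relative log2 difference of -0.45. Ryanodine receptor genes, which encode release channels of the endoplasmic reticulum, had the largest falls: Ryr1 read 0.2 ± 0.101 against 13.3 ± 2.52 RPKM, Ryr3 5.77 ± 0.56 against 33.2 ± 5.09 and Ryr2 16.4 ± 1.19 against 57.4 ± 10. With TTX the same 3 genes fell, to 0.271 ± 0.0427, 10.7 ± 0.762 and 21.3 ± 0.668 RPKM, and these 6 falls held under all 3 scalings. Higher with Bic/4AP as deposited, but not under all 3 scalings, were 3 genes. They were Cltc, the clathrin heavy chain gene, Ap2b1, an adaptor subunit gene, and Atp2a2, the calcium pump of the endoplasmic reticulum. In all, 1 gene of the list rose and 12 fell with Bic/4AP under all 3.

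TTX raised 2 of the 22, lowered 14 and left 6 uncalled, at a median relative log2 difference of -0.49. The rises were Pi4kb, the kinase gene that Cabp7 protein restrains, at 19.6 ± 0.455 against 15.7 ± 0.876 RPKM, and Apba2 at 52.2 ± 2.65 against 43.8 ± 3.32. The Pi4kb call did not hold under all 3 scalings, and the Apba2 call did. With Bic/4AP both fell, to 9.3 ± 0.711 and 28.9 ± 1.44 RPKM, under all 3 scalings. Itpr1, the receptor gene on whose product caldendrin acts, fell to 9.78 ± 0.531 with Bic/4AP and 18.9 ± 1.18 with TTX, from 30.2 ± 3.91 RPKM. Between Bic/4AP and TTX, 7 were higher, led by Cltc, Atp2a2 and Slc8a1, a sodium-calcium exchanger gene, and 11 were lower, led by Pi4kb, Itpr1 and Apba2, with these 6 called under all 3 scalings.

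**Figure D3:**
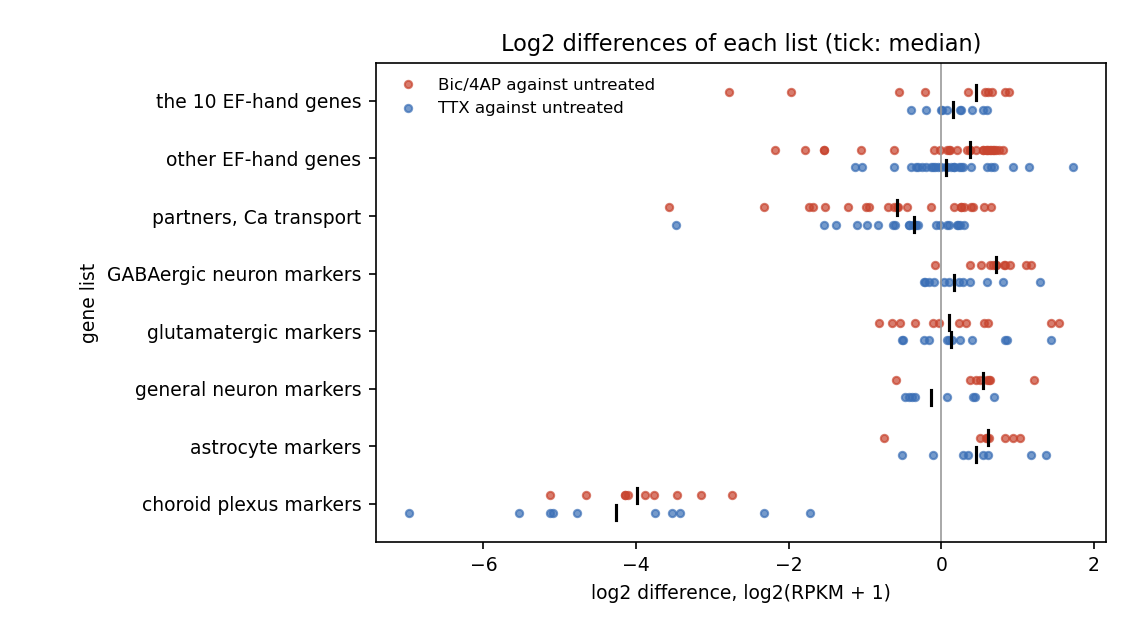
Log2 differences on the log2(RPKM + 1) scale of each tested gene of 8 lists, for Bic/4AP (red) and TTX (blue) against untreated; each point is 1 gene and each black tick the median of its list. The 10 EF-hand genes spread from -2.78 to 0.89 with Bic/4AP, GABAergic markers sit mostly above 0, and choroid plexus markers lie far below 0 under both treatments.

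The genes whose profile over the 9 libraries was most like those of the 3 members with the widest range of group means were named by Pearson correlation of log2(RPKM + 1) among 11996 genes. The 9 points fall into 3 treatment groups, so the coefficients mostly record the order of the groups. For Cabp7 they were Rps6kl1 (r = 0.9937), Zfp821 (0.9936) and Pbx2 (0.9934). Those of Cabp1 were Rhot2 (0.9981), a mitochondrial GTPase gene, Mast3 (0.9979), a kinase gene, and Grik4 (0.9977), a kainate receptor subunit gene. Necab3 was followed most closely by Alg12 (0.9917), Cutc (0.9911) and Erich1 (0.9908). Of these, Rps6kl1 read 26 RPKM with TTX, 21.8 untreated and 5.05 with Bic/4AP as group means, and Grik4 26.2, 33 and 12.2.

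Chromatin was read at the start sites given by RefSeq for Pvalb, Cabp1, Cabp7, Necab2, Necab3 and Hpca. Outer and outermost refer to these listed sites. The Hpca span reaches 129125919, beyond its outermost listed site at 129121747, so a start at that end was not read. The following stretches are the 250 bases upstream of 4 start sites, from RefSeq on GRCm38.p6, 5′ to 3′ along the gene. Those of Pvalb are shown because methylation differed between its start sites, that of Cabp1 because a peak covers it, and that of Cabp7 because its RNA had the largest difference. In both Pvalb sequences the capitals mark CpG, the dinucleotide that carries methylation. In that of Cabp7 the capitals mark matches to the GC box GGGCGG on either strand. That of Cabp1 is all in lower case, since no motif searched below matched within it.
Pvalb, outer start site, minus strand, chr15:78206401-78206650: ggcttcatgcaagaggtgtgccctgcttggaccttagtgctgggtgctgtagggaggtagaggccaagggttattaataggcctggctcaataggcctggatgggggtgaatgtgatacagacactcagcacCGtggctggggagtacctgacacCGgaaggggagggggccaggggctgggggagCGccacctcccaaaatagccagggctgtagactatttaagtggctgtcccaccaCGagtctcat
Pvalb, inner start site, minus strand, chr15:78204238-78204487: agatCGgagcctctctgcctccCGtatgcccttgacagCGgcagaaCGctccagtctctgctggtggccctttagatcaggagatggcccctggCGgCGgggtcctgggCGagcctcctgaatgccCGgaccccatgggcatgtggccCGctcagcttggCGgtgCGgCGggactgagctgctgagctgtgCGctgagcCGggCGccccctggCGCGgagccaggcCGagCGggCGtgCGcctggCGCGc
Cabp1, inner start site, minus strand, chr5:115186122-115186371: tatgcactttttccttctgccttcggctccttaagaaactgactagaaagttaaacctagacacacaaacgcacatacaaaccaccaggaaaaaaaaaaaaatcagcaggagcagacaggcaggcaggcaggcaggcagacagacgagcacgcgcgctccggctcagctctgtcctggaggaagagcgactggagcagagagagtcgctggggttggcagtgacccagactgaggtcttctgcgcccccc
Cabp7, minus strand, chr11:4747180-4747429: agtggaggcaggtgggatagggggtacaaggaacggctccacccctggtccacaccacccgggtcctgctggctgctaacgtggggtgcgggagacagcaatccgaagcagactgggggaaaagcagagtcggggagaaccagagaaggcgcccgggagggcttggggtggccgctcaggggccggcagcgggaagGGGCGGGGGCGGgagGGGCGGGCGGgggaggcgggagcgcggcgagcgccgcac

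The Pvalb stretches differ in CpG content, with 4 CpGs in the outer and 23 in the inner one, and so did the methylation around them. Within 1 kb on each side of the outer site the mean methylation was 0.838 with TTX, 0.841 untreated and 0.823 with Bic/4AP over 24 CpGs. Around the inner site it was 0.0881, 0.0793 and 0.0884 over 51 CpGs. The sites are methylated at very different levels, and each level was alike in the 3 libraries. With 1 library per treatment and no coverage in the files, no difference between treatments was tested.

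Cabp1 had a similar division. Its outer site, rich in CpG, read 0.0118, 0.0187 and 0.0197 over 143 CpGs (TTX, untreated, Bic/4AP), and its inner site 0.445, 0.46 and 0.473 over 46 CpGs. Cabp7, whose expression fell the most, was little methylated at its start in every library, at 0.0614, 0.0666 and 0.0639 over 127 CpGs. Necab2 read 0.0696, 0.0635 and 0.0631, Necab3 0.254, 0.276 and 0.268 and Hpca, over its 3 start sites together, 0.201, 0.206 and 0.193. The median of 15688 genes was 0.113, 0.114 and 0.113.

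None of the 6 genes differed by 0.1 or more in mean start-site methylation between a treated and the untreated library. Among all 15688 genes such a rise was seen in 0.504% and such a fall in 0.669% with Bic/4AP, and in 0.606% and 0.733% with TTX. Over gene spans, which all 10 genes have, the largest difference from untreated was that of Calb1, at 0.657 with Bic/4AP against 0.682 over 132 CpGs, followed by Hpca at 0.42 against 0.439 over 293. The Cabp7 span read 0.401, 0.404 and 0.4 and the Cabp1 span 0.496, 0.503 and 0.501. At the precision of 1 library each, Cabp1 and Cabp7 showed no start-site difference of 0.1 or more, and the same holds for nearly all genes. It is therefore no trait of genes whose RNA fell. RNA came from ICR and methylation from C57BL/6 mice.

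**Figure D4:**
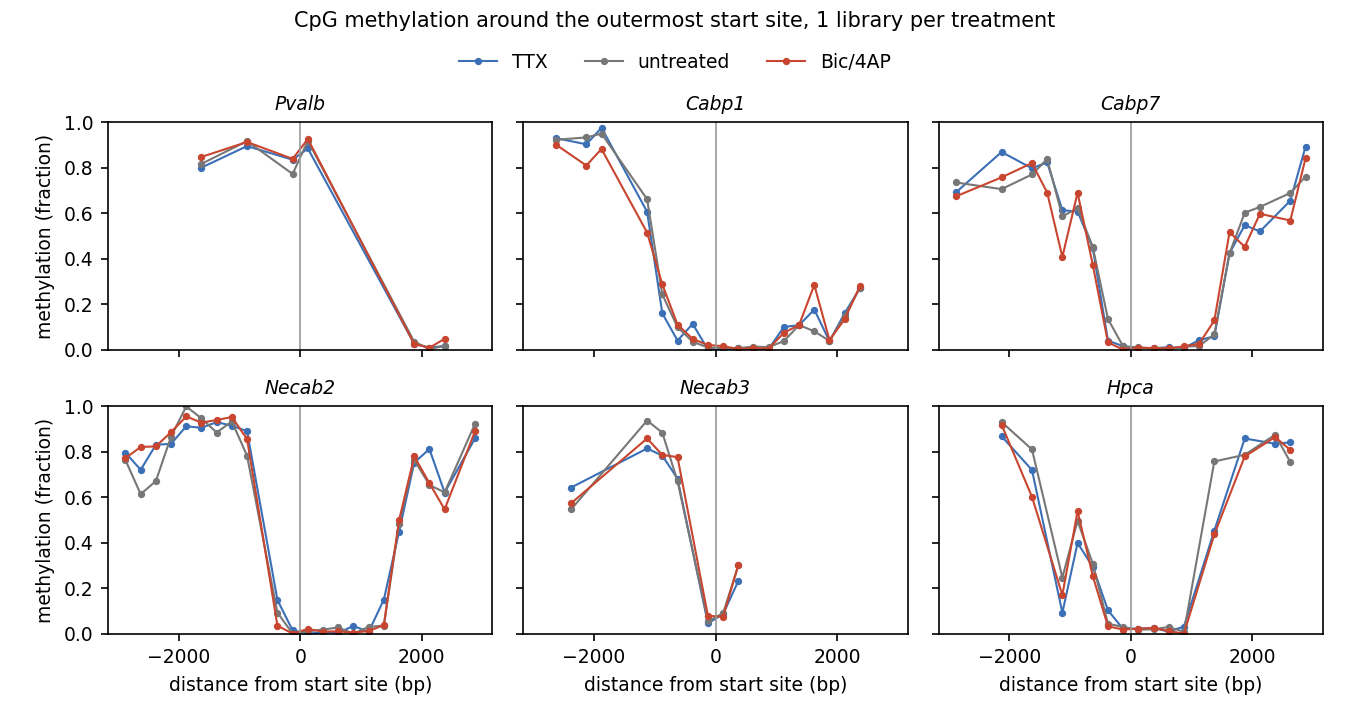
Mean CpG methylation (fraction, 0 to 1) against distance in bp from the outermost listed start site, for the 6 genes with a listed site. Each point is the mean of a bin of 250 bp holding at least 3 CpGs. TTX is in blue, untreated in grey and Bic/4AP in red, 1 library each. The start sites of Cabp1, Cabp7, Necab2, Necab3 and Hpca sit in troughs near 0, that of Pvalb sits near 0.8 and its trough lies about 2 kb downstream, and the 3 lines follow each other in every panel.

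H3K27ac marks active promoters and enhancers. The 2 deposits of peak lists differ greatly in size, with 4846 untreated and 7721 Bic/4AP peaks in the first and 49701 and 55035 in the second, so lists are compared within a deposit. A peak within 1 kb of a start site was present in the first deposit for 0 of the 6 genes in either condition, where 9.83% and 21.2% of 16780 genes had one. In the second it was present untreated for Necab2 and Hpca (29.6% of all genes) and with Bic/4AP for Necab2 and Cabp1 (37.9%). H3K4me1, a mark of enhancers, had a start-site peak in 1 of its 2 untreated lists for Hpca only, where 1.13% of all genes had one.

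Cabp1 had H3K27ac peaks with Bic/4AP only. Both untreated lists held no H3K27ac peak over its span, while the Bic/4AP lists held 1 peak of 618 bp (score 56.31, the authors' own peak score) and 3 peaks covering 2742 bp (highest score 242.1). In the second deposit the peak at 115186195 to 115186772 covers most of the inner Cabp1 stretch printed above, and its centre lies at -362 bp from that start site (negative values are upstream). The strongest one, at 115186798 to 115188245, and the peak of the first deposit, at 115187289 to 115187907, have centres at -1400 and -1477 bp. The first-deposit peak lies outside the window of 1 kb used above. The Bic/4AP lists are longer in both deposits: the share of all genes with a peak over the span was 13.2% untreated and 24.3% with Bic/4AP in the first, and 39.7% and 44.9% in the second. Cabp1 RNA was 4.4-fold lower in that condition. Only the presence of listed peaks was compared, not the signal.

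Necab2 had an H3K27ac peak over its start in the second deposit, of 7005 bp untreated and 11824 bp with Bic/4AP. A further untreated peak of 3913 bp follows closely, at 119453689 to 119457602. The single Bic/4AP peak, at 119446548 to 119458372, runs over nearly all of both, so the widths do not show a wider mark. Both peaks over the start have a score of 3100, as do several Ncald peaks, so equal scores need not mean equal signal. The second-deposit lists hold 3 peaks over Necab2 untreated and 6 with Bic/4AP. In the first deposit it had no peak untreated and 1 of score 98.36 with Bic/4AP. Hpca, the gene with the smallest fold difference with Bic/4AP, had 3 peaks untreated in the second deposit (highest score 78.56) and none with Bic/4AP. Necab1, whose RNA rose with Bic/4AP, had 1 peak, of score 219.1, untreated in the second deposit alone.

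Calb1, Calb2, Pvalb, Cabp7 and Necab3 had no H3K27ac or H3K4me1 peak over their spans, with 1 kb added on each side, in any of the 6 lists. Between 13.2% and 44.9% of 22546 genes had an H3K27ac peak over the span in a list, and 16.7% and 16.6% an H3K4me1 peak. The share of all genes with no peak in any of the 6 lists was not counted, so this absence is not read as a trait of these genes. Ncald, which spans 426345 bp of chromosome 15, held 9 and 6 H3K27ac peaks in the first deposit (untreated, Bic/4AP) and 55 and 57 in the second. The peaks covered 6332 bp untreated and 10288 bp with Bic/4AP in the first deposit, and 99161 bp and 124226 bp in the second. The H3K4me1 lists held 31 and 30 peaks over Ncald.

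**Figure D5:**
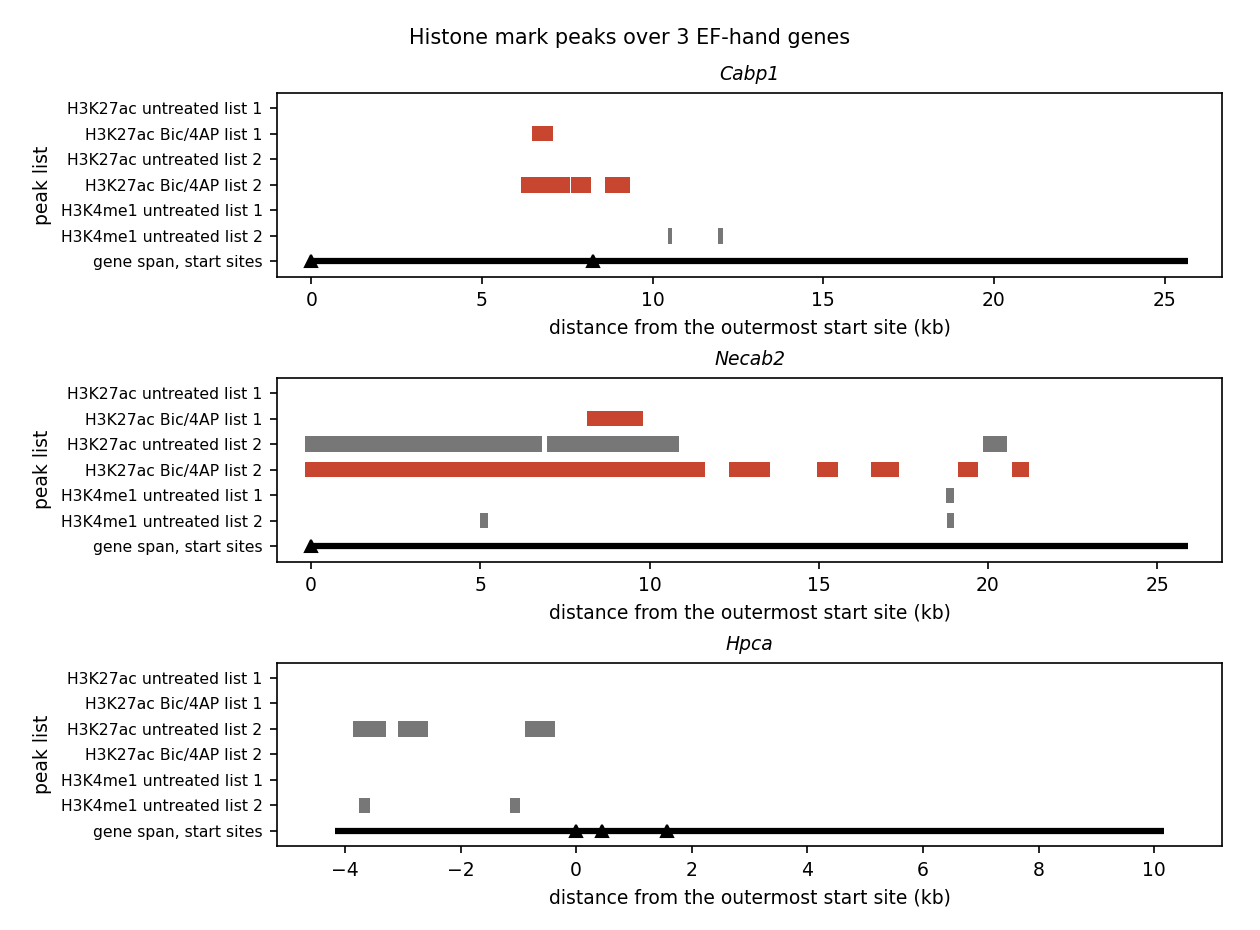
Peaks of H3K27ac and H3K4me1 over Cabp1, Necab2 and Hpca, by distance in kb along the gene from the outermost listed start site. Each row is 1 peak list. Red boxes are Bic/4AP peaks and grey boxes untreated peaks. The black line is the gene span and triangles are listed start sites. Cabp1 has H3K27ac boxes only in the Bic/4AP rows, Hpca only in an untreated row, and Necab2 in both rows of the second deposit.

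Motif letters were searched on both strands of the 300-base windows, from 250 bases before to 50 after each start, of the 6 genes and of all 20289 windows. The cyclic AMP response element TGACGTCA was in 2.31% of all windows and in none of theirs. The AP-1 letters TGANTCA were in 7.21% of all windows and in that of Necab2, once. The E-box CACGTG was in 8.06% of all windows and once at the innermost Hpca start site. The GC box GGGCGG was in 47.1% of all windows. It occurred 4 times in that of Cabp7, with overlapping matches, 4 times at the middle Hpca start site and once at the outer one, 3 times in that of Necab3, 2 times at the outer and once at the inner Cabp1 site, and once in that of Necab2. The windows of Cabp7 and of the middle Hpca site were 73% and 74% G and C, where the median was 56.7%.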

How the data were processed

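RNA-seq (9 libraries), bisulfite sequencing (3) and ChIP-seq peak lists (6) were used, and the input sample was not used here. Per the labels, samples were grouped by treatment, RNA was selected by poly(A), and bisulfite libraries used post-bisulfite adaptor tagging. The deposited expression values are RPKM, made by the authors. The mm10 build, MACS 1.4.1, SAMtools 0.1.19, Bowtie2 2.2.4 and TopHat are named per the submitters' processing notes. Which counter was used, whether by strand, and how duplicates were handled were not given in the sources used here. Values of all 19588 genes above 0 in 3 or more libraries could be fitted as whole multiples of 1 read within 0.05 of a read, which gave reads. For genes above 0 in few libraries such a fit is easily found. Library sizes also used the known lengths of 392 short RNAs, of which 84.7% gave a size within 2% of their median. Methylation is deposited as a fraction per CpG without coverage, so its depth is unknown. The score of each peak is the authors' own, deposited per sample.

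Genes were fitted with limma 3.58.1 in R 4.3.3 (all 9 libraries, treatment as the term, pseudocount 1, intensity trend), and the code was tested on simulated data. The scale understates changes of low genes. Of 24062 lines, 4 with repeated names were left out. A start site was taken from RefSeq (GRCm38.p6), with 1 kb on each side, at least 1 base of peak overlap and at least 5 CpGs read in all 3 libraries. All 10 genes are named. From each list up to 3 genes per comparison and direction are named, with the largest log2 differences among called genes at 5 RPKM or more in a group. The members, the gene lists and the tests were chosen with earlier results of these data known. Alternatives were other pseudocounts, filters and scalings, fits of 2 groups, a replicate block, leaving out each library, limma's voom on recovered reads (added after seeing the data), and other windows, scores and overlaps for peaks.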

Additional observations from a re-analysis of the deposited data

How the results depend on the processing

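Of 537 values of the 10 genes under other settings, 495 kept their side of the threshold without a counted sign change, 26 lost a call, 7 gained one and 9 changed sign. A value that rounds to 0.00, such as that of Calb1 with TTX against untreated as deposited, has no direction and was never counted as a sign change. The sign changes were Calb2 for Bic/4AP against TTX at -0.34 (quantile) and -0.27 (loess), Ncald there at -0.15 and -0.17, Necab2 there at -0.01 (quantile), Cabp7 for TTX against untreated at -0.07 (loess), and Hpca there at -0.05 (quantile), -0.08 (loess) and -0.10 without untreated library 2 (-0.10 to 0.09 with each library left out in turn). The cause was not tested. With voom on recovered reads, Hpca lost its Bic/4AP call (-0.18).

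The count of genes lower with TTX was 1 to 2 when each library was left out in turn; it was 1 without TTX library 1 or 2 or untreated library 1 or 2. With 2 libraries in a group, the fit pools the spread over groups. For peaks, a window of 5 kb gave 1 gene in the first Bic/4AP H3K27ac list and 3 in the second H3K4me1 list. In the second untreated H3K27ac list, 1 gene was left at 250 bases or at a score of 100 or more. In the second H3K4me1 list, 0 were left at 250 bases, at a score of 100 or more, or with 100 bases of overlap.

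Same-numbered libraries did not deviate together (correlations -0.17 to 0.04), so no pairing was seen. With 3 libraries per group this cannot exclude a pairing, and the labels do not state one. With the replicate block 6 genes rose and 4 fell with Bic/4AP, and 0 of 30 calls changed. Cabp7 rests on 3 to 10 reads per Bic/4AP library, and methylation on 1 library per treatment without coverage.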
